A study of Mus musculus with 2 samples.

Results

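The genes of zinc handling followed here were the metallothioneins Mt1 and Mt2, the metal-responsive transcription factor Mtf1, the exporters Slc30a1 and Slc30a10, and the importer Slc39a14. They were listed by name and are 6 of the 19073 features measured in each library. The study asked how hepatocytes with high p16 expression differ from their neighbours in fibrotic mouse liver. Both libraries came from male heterozygous p16-Tom mice on the C57BL/6 background, which carry p16-CreERT2 and the reporter R26-CAG-LSL-tdTomato-WPRE. All mice had received CCl4, a hepatotoxin that damages hepatocytes around the central vein, for 4 weeks, and tamoxifen, which activates the CreERT2 recombinase. One library was made from sorted Tom- hepatocytes (p16low) and the other from Tom+ hepatocytes (p16high). Reporter expression therefore marks cells in which the p16 promoter had driven enough recombinase at the time of tamoxifen, and neither an untreated liver nor a mouse without tamoxifen is compared here. Tissue was fixed before dissociation, cells were sorted on a nuclear dye, a mitochondrial dye and the reporter, and transcripts were counted with a fixed-RNA probe kit. Each group has 1 library and the number of mice behind it is not given in the sources used here, so all differences below are between libraries, with no replicate check and no p-value.

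Metallothioneins are small cysteine-rich proteins that bind zinc and copper in the cytosol. Excess zinc binds Mtf1, which then activates metallothionein genes and Slc30a1 through metal response elements, short motifs with the core TGCACNC or TGCGCNC. Slc30a1 moves zinc out of the cell across the plasma membrane, Slc30a10 belongs to the same family but is known chiefly as a manganese exporter, and Slc39a14 brings zinc, manganese and iron into hepatocytes and is induced in inflammation. Glucocorticoids and inflammatory cytokines also induce Mt1 and Mt2 in liver. The liver lobule is organised around blood flow from the portal tract to the central vein, and many hepatocyte genes are graded along that axis.

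In the mm10 annotation, Mt1 (ENSMUSG00000031765) spans chr8:94179082-94180327 and Mt2 (ENSMUSG00000031762) spans chr8:94172664-94173568, both on the plus strand, with starts 6.418 kb apart. Mtf1 (ENSMUSG00000028890) lies at chr4:124802104-124849800 on the plus strand. Slc30a1 (ENSMUSG00000037434) lies at chr1:191906767-191913247 and Slc30a10 (ENSMUSG00000026614) at chr1:185454848-185468762, both on the plus strand. Slc39a14 (ENSMUSG00000022094) lies at chr14:70303469-70351425 on the minus strand.

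The promoters below are shown because metal response elements are the known link between Mtf1 and the metallothionein genes and Slc30a1. The other members were searched in the same way, and no such link is assumed for them. Of the 6 genes, 5 had an entry in the RefSeq promoter table (GRCm38.p6, the assembly also called mm10). The letters searched were TGCACNC and TGCGCNC, on either strand, in the 250 bases before the RefSeq start, and matches are in capitals. Each printed sequence stops before the annotated gene begins. The plus strand is printed for Mt1 (chr8:94178839-94179081), Mt2 (chr8:94172368-94172617), Slc30a1 (chr1:191906531-191906766) and Slc30a10 (chr1:185454598-185454847).
Mt1: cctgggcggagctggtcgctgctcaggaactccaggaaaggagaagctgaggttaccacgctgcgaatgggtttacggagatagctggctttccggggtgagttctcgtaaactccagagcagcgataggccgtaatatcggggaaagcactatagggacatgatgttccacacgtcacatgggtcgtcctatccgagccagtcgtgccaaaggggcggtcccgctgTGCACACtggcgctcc
Mt2: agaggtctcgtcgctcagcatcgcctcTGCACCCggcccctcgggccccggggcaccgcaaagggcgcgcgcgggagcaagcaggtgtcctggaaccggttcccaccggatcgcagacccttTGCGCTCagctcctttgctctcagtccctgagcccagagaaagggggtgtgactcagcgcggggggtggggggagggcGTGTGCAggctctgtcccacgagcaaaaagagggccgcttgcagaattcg
Slc30a1: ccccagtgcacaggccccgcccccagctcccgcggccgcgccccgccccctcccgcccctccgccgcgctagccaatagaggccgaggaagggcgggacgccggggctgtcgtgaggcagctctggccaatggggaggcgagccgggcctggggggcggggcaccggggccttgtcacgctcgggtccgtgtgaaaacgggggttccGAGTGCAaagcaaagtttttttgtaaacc
Slc30a10: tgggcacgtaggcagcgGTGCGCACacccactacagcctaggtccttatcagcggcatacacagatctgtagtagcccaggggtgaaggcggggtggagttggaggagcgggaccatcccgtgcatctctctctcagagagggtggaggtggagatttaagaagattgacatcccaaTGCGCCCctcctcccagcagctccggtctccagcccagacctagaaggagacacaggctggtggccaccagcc

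Mt1 held 1 match, 23 to 17 bases before its RefSeq start, and Slc30a1 held 1, 43 to 37 bases before its RefSeq start. These RefSeq starts lie inside the genes as annotated above, since the base before them is chr8:94179088 for Mt1 and chr1:191906780 for Slc30a1. Mt2 held 3 matches. Slc30a10 also held 3, of which a pair overlap on opposite strands. The window of Mtf1 (chr4:124802299-124802548) held 0, but it lies wholly inside the annotated gene and so covers no base before it. Slc39a14 had no entry. Across 32851 mouse promoters of the same length, 21.4% held at least 1 match, 5.17% at least 2 and 1.26% at least 3. A match is a run of letters and not a measured binding site. Bases after the RefSeq start were not searched for any gene, so matches there are not counted. The counts for Mt1 and Slc30a1 are therefore not the number of metal response elements of these genes.

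The deposited matrices held 23220 barcodes and 681279005 unique molecular identifiers (UMIs, counted transcripts) for Tom- and 16339 barcodes and 715333889 UMIs for Tom+. After filtering, 11018 Tom- and 10491 Tom+ hepatocytes were kept, with median depths of 32608.5 and 35396 UMIs. The libraries shared 503 cell barcodes. Alb, which encodes serum albumin and defines hepatocytes, was abundant in both, and the summed level of 10 hepatocyte markers was 188249 UMIs per 1000000 (CPM) in Tom- and 181783 CPM in Tom+. The tdTomato probes gave 62.6 to 121 CPM across lobule positions in Tom- and 671 to 995 CPM in Tom+, matching the labels. Lobule position was scored from 13 pericentral and 13 periportal markers, none of them a member, and cells of both libraries were cut together into 5 bins of equal size, from bin 1 (portal) through bin 3 (middle) to bin 5 (central). Glul, a marker of the cells next to the central vein, rose from 6.25 to 280 CPM from the portal to the central bin in Tom- and from 10.4 to 365 CPM in Tom+. Cyp2f2, a periportal marker, fell from 410 to 26.2 CPM and from 508 to 19.3 CPM. Glul and Cyp2f2 are themselves markers in the score, so their gradients follow from the binning and do not check it. Igfbp2 and Hamp, which the paper uses to mark the zone between, did not peak in the middle bin. Igfbp2 was highest between the middle and central bins (684 CPM in Tom- and 607 CPM in Tom+, against 630 and 533 CPM in the middle bin). Hamp was highest between the portal and middle bins (170 and 132 CPM, against 139 and 121 CPM). The libraries filled the bins unequally: 28.2% of Tom- and 11.4% of Tom+ hepatocytes were in the portal bin, and 10.4% and 30.1% in the central bin. Of all 21509 hepatocytes, 4172 (19.4%) lay within 0.1 of a cut.

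Mt1 was highest in the middle of the lobule and low at both ends in both libraries. From the portal to the central bin, Mt1 stood at 490.5, 794.2, 948.1, 783.2 and 534.6 CPM in Tom-. In Tom+ the values were 474.3, 711.0, 969.1, 874.8 and 540.8 CPM. The middle bin therefore exceeded the portal bin by 0.95 on the log2 scale in Tom- (95% interval 0.94 to 0.97) and by 1.03 in Tom+ (1.01 to 1.05). It exceeded the central bin by 0.83 (0.80 to 0.85) and 0.84 (0.83 to 0.86). These intervals, like all below, are exact and cover counting error only. With the score cut into 10 finer bins, Mt1 peaked in finer bin 6 in both libraries, at 954.8 and 970.3 CPM, which was 2.17 and 2.26 times the level in finer bin 1. In Tom+ finer bins 5 and 7 were nearly as high, at 967.8 and 968.5 CPM, with overlapping intervals. In Tom- finer bin 5 stood at 942.4 CPM and finer bin 7 at 849.9 CPM.

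Mt2 followed the same course. Its levels from portal to central were 822.6, 1310, 1541, 1211 and 720.7 CPM in Tom-. In Tom+ they were 684.4, 979.6, 1315, 1158 and 644.2 CPM. The middle bin exceeded the portal bin by 0.91 (0.89 to 0.92) on the log2 scale in Tom- and 0.94 (0.93 to 0.96) in Tom+. It exceeded the central bin by 1.10 (1.08 to 1.11) and 1.03 (1.02 to 1.04). Mt2 peaked in finer bin 5 in Tom- and 6 in Tom+. Its lowest level was in finer bin 10 in both libraries, where that of Mt1 was in finer bin 1.

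**Figure D1:**
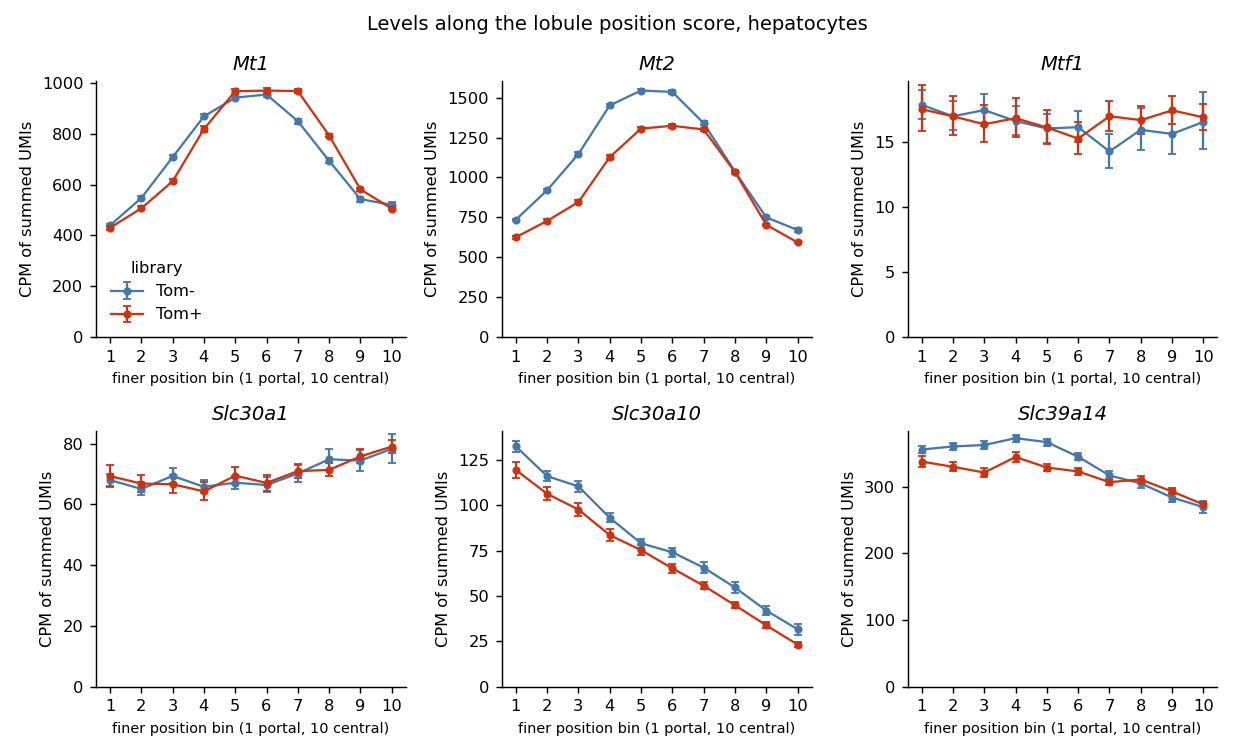
Level of each gene (CPM of summed UMIs, y axis from 0) in 10 finer bins of the lobule position score from portal (1) to central (10), in Tom- and Tom+ hepatocytes. Points are pooled over cells of 1 library and bars are exact 95% Poisson intervals. Mt1 and Mt2 form a hump with its top in finer bins 5 and 6 in Tom- and 5 to 7 in Tom+. Slc30a10 descends from 132.5 to 31.7 CPM in Tom- and from 119.4 to 23.2 CPM in Tom+, and Mtf1 and Slc30a1 are nearly level.

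A middle bin this far above both end bins was uncommon in these libraries. Between the middle and portal bins, 3 of the 6 members differed by 1.5-fold or more in each library (Mt1, Mt2 and Slc30a10), against 5.03% of 8901 tested genes in Tom- and 5.93% of 8934 in Tom+. Mt1 and Mt2 were higher and Slc30a10 lower in the middle. Between the middle and central bins the same 3 members differed by 1.5-fold or more, each higher in the middle, against 7.49% and 7.73% of tested genes that differed in either direction. Genes at least 1.5-fold above both end bins in both libraries numbered 10 of 8768 tested, or 0.114%. Mt1 and Mt2 were 2 of these 10. The others were Aldh3b3, Col15a1, Mup10, Slc22a7, Srrm4 and the sulfotransferases Sult2a2, Sult2a5 and Sult2a8. The comparison with the middle bin was set after the levels by bin had been seen. With the score cut into 3 bins in place of 5, the summed metallothioneins in the middle bin still exceeded those of the portal bin by 0.67 on the log2 scale in Tom- and 0.77 in Tom+, and those of the central bin by 0.67 and 0.62. Mt1 alone then exceeded the central bin by 0.56 in each library, short of 1.5-fold. With the 5 bins cut within each library, Mt1 exceeded the central bin by 0.48 in Tom-, also short of it. At a fold of 2, 0 members in Tom- and 1 in Tom+ differed between the middle and portal bins.

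The 2 ends of the lobule differed little. Central over portal, Mt1 was higher by 0.12 (0.10 to 0.15) in Tom- and by 0.19 (0.17 to 0.21) in Tom+ on the log2 scale, but -0.036 and -0.022 with median-of-ratios scaling, which removes the all-gene medians of 0.16 and 0.21. The corresponding value for Mt2 was -0.19 (-0.21 to -0.17) in Tom- and -0.09 (-0.11 to -0.07) in Tom+. Summed, the metallothioneins gave -0.06 in Tom- and 0.03 in Tom+. Both signs turned when the bins were cut within each library, to 0.38 and -0.23.

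Pooled over all cells of a bin, the balance between the metallothioneins shifted along the axis. Mt2 UMIs per Mt1 UMI fell at each step in Tom-, from 1.68 (1.66 to 1.69) in the portal bin through 1.65, 1.62 and 1.55 to 1.35 (1.32 to 1.37) in the central bin. In Tom+ the ratio fell from 1.44 (1.42 to 1.47) through 1.38, 1.36 and 1.32 to 1.19 (1.18 to 1.20). The ratio was lower in Tom+ than in Tom- in every bin. Both patterns pool clusters that differed. In Tom-, periportal cluster 3 (7.60% Tom+ cells) had 545 CPM of Mt1 and 1034 CPM of Mt2. Periportal clusters 2, 4 and 11 had 565 and 809, 788 and 1129, and 461 and 506 CPM. In Tom+, clusters 2, 3, 4 and 11 had 558 and 796, 529 and 885, 802 and 1072, and 415 and 482 CPM. The ratio within bins without clusters drawn mostly from a single library was not tested. Absolute levels of different genes are not compared, because each probe captures its target with its own efficiency. Mt1 and Mt2 are close in coding sequence, and their probe sequences were not used here, so reads of one gene counted for the other could not be looked for.

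Mtf1, the sensor of this system, was low and varied little with position. Its levels from portal to central were 17.4, 17.0, 16.1, 15.0 and 16.0 CPM in Tom-. In Tom+ they were 17.2, 16.6, 15.7, 16.8 and 17.1 CPM. The central and portal bins differed by -0.13 (-0.26 to 0.01) on the log2 scale in Tom- and by -0.005 (-0.12 to 0.11) in Tom+. Both intervals include 0, and the highest of the 10 finer bins was 1.25 and 1.15 times the lowest. Mtf1 had no mid-lobular maximum: middle over portal was -0.12 (-0.21 to -0.02) in Tom- and -0.13 (-0.26 to -0.01) in Tom+.

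Slc30a1, the plasma membrane zinc exporter and itself a known Mtf1 target, did not share the hump of the metallothioneins. Levels were 66.6, 67.5, 66.8, 72.2 and 75.8 CPM from portal to central in Tom-. In Tom+ they were 67.9, 65.5, 68.2, 71.2 and 77.5 CPM. The middle and portal bins differed by 0.004 (-0.04 to 0.05) and 0.01 (-0.06 to 0.07) on the log2 scale. Central over portal was 0.19 in each library (0.12 to 0.25 in Tom- and 0.14 to 0.25 in Tom+), close to the all-gene medians of 0.16 and 0.21, and with median-of-ratios scaling it turned to -0.019 in Tom+.

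Slc30a10 had the steepest gradient of the 6 genes. It stood at 124.7, 101.1, 76.8, 61.0 and 38.2 CPM from portal to central in Tom-. In Tom+ it stood at 111.8, 91.0, 70.0, 49.9 and 28.2 CPM. The portal bin exceeded the central bin 3.26-fold in Tom- and 3.97-fold in Tom+, that is -1.71 (-1.79 to -1.63) and -1.99 (-2.05 to -1.93) on the log2 scale for central over portal. It was the only member past 1.5-fold in that comparison, where 16.2% of 9080 tested genes in Tom- and 17.9% of 9106 in Tom+ passed it in either direction and 5.48% and 5.62% were lower. A fall at every step that reached 2-fold in all was found for 176 of 9014 genes (1.95%) in both libraries, Slc30a10 among them. The same order was seen in cells thinned to 5000 UMIs each: the share of cells with a Slc30a10 UMI fell from 46.8% to 19.5% in Tom- and from 43.0% to 13.2% in Tom+, and without thinning from 93.6% to 63.4% and from 93.5% to 54.0%.

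Slc39a14, the importer, was highest in bins 1 and 2 and lowest in bin 5. Its levels were 358, 368, 357, 312 and 279 CPM in Tom-. In Tom+ they were 333, 332, 326, 309 and 283 CPM. Central over portal was -0.36 (-0.39 to -0.33) on the log2 scale in Tom- and -0.24 (-0.26 to -0.21) in Tom+, short of 1.5-fold. Middle and portal bins were nearly equal, at -0.005 (-0.03 to 0.02) and -0.03 (-0.06 to -0.005).

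Over all hepatocytes, no member differed by 1.5-fold between the libraries (0 of 6, against 2.34% of 8957 tested genes). Mt1 was 718.5 CPM in Tom- and 722.6 CPM in Tom+, a log2 difference of 0.01 (0.001 to 0.02), and the median of all genes was 0.04. Mt2 was 1157 and 954.6 CPM, lower in Tom+ by 1.21-fold, or -0.28 (-0.28 to -0.27) on the log2 scale. Slc30a10 was 90.6 and 61.0 CPM, lower in Tom+ by 1.49-fold, or -0.57 (-0.59 to -0.55), and 99.5% of tested genes ranked at or above it. Slc30a10 passed 1.5-fold in cells thinned to 5000 UMIs, with levels averaged over cells, with median-of-ratios scaling and without the 10% of cells with the highest doublet scores. Slc39a14 was 346.5 and 311.0 CPM (-0.16, -0.17 to -0.15). Mtf1 was 16.5 and 16.7 CPM (0.02, -0.03 to 0.07) and Slc30a1 was 68.5 and 71.2 CPM (0.06, 0.03 to 0.08).

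At matched position the Slc30a10 difference was smaller in each bin than over all hepatocytes. Tom+ over Tom- was -0.16, -0.15, -0.13, -0.29 and -0.44 (-0.53 to -0.35) on the log2 scale from the portal to the central bin, lower in Tom+ in every bin. The libraries filled the bins unequally, as given above, and within each bin Glul was also higher in Tom+, at 6.25 and 10.4 CPM in bin 1, 8.30 and 15.6 CPM in bin 2 and 280 and 365 CPM in bin 5. Cyp2e1, another pericentral marker, was higher in Tom+ in bins 1, 2 and 5 (3938 and 4015 CPM in bin 5). It was lower in Tom+ in bin 3 (1456 and 1417 CPM) and bin 4 (2753 and 2648 CPM). The periportal markers Cyp2f2 and Sds were higher in Tom+ in bins 1 to 3 and lower in bins 4 and 5. In bin 2, Cyp2f2 was 156 and 214 CPM and Sds 1833 and 2148 CPM, and in bin 5 they were 26.2 and 19.3 CPM and 212 and 135 CPM. The part of position within a bin was not tested. Mt2 was also lower in Tom+ in every bin, at -0.27, -0.42, -0.23, -0.06 and -0.16. Over all hepatocytes its ratio of -0.28 became -0.15 without clusters of 90% or more Tom+ cells. The ratio of Mt2 within bins without those clusters was not tested. Mt1 changed sign along the axis, at -0.05, -0.16, 0.03, 0.16 and 0.02. Slc39a14 was lower in Tom+ in bins 1 to 3 (-0.10, -0.15 and -0.13) and nearly equal in the remaining ones (-0.01 and 0.02). Slc30a1 lay between -0.04 and 0.03 throughout, and each interval included 0. Mtf1 lay between -0.04 and 0.17, with an interval above 0 in bin 4 alone. No member passed 1.5-fold in any bin, where 0.465, 0.565, 0.505, 0.626 and 0.608% of tested genes did.

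**Figure D2:**
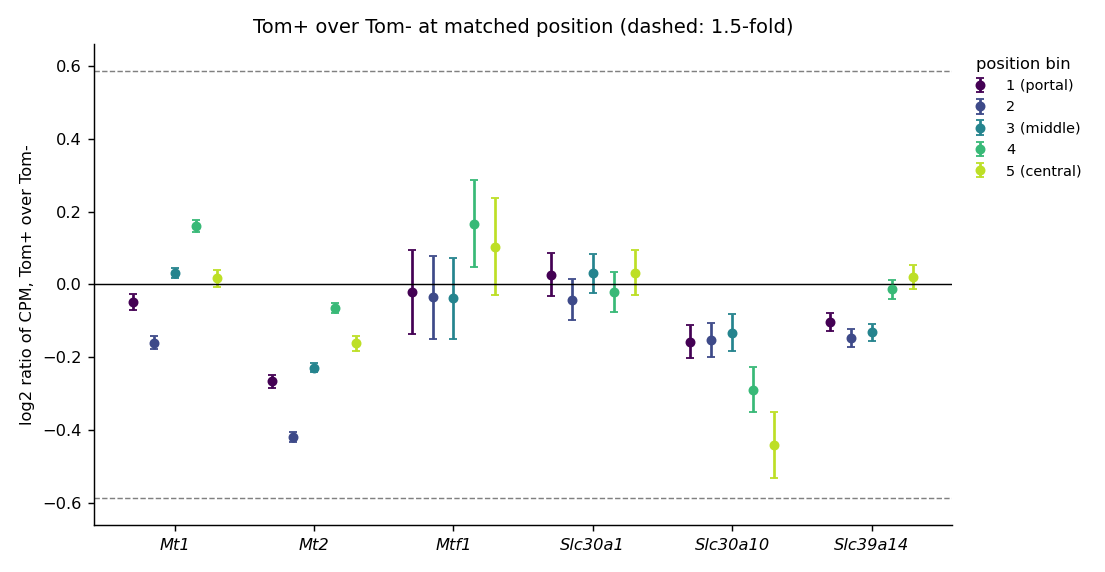
Log2 ratio of CPM, Tom+ over Tom-, for each gene (x axis) in each position bin (colours), with exact 95% intervals for counting error and dashed lines at 1.5-fold. Slc30a10 and Mt2 lie below 0 in all bins, Mt1 lies on both sides of 0, and no point reaches a dashed line.

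Metallothionein levels varied widely between single hepatocytes. With each cell thinned to 5000 UMIs (34 Tom- and 41 Tom+ cells were shallower and left out), Mt1 averaged 3.80 UMIs per cell in Tom- and 3.76 in Tom+, with a median of 3 and a 5th to 95th percentile range of 0 to 10 in both. Mt2 averaged 5.75 and 4.78 UMIs per cell. After the part expected from counting was removed, the standard deviation of Mt1 was 64.3% of its mean in Tom- and 67.1% in Tom+, and that of Mt2 was 61.1% and 69.4%. The squared value for Mt1 (0.413 and 0.450) was higher than that of 86.1% of 8828 genes in Tom- and 87.4% of 8906 in Tom+. That of Slc39a14 was 0.072 and 0.062, so the importer varied far less around its mean. Slc30a10 gave 0.219 and 0.446, on means of 0.468 and 0.308 UMIs per cell. Mtf1 and Slc30a1 averaged 0.09 and 0.35 UMIs per cell in Tom-. Counts of Slc30a10, Mtf1 and Slc30a1 were too few for their spread to be weighed.

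Differences between bins made up 10.6% of the total variance of Mt1 counts in Tom- and 9.15% in Tom+, counting error included, and 12.8% and 11.0% of that of Mt2. With counting removed, the squared spread of Mt1 was 0.342 and 0.377 as a mean within bins, against 0.413 and 0.450 over all cells. Within single bins the standard deviation of Mt1 beyond counting was still 54.2 to 62.6% of the mean in Tom- and 56.6 to 70.2% in Tom+. For Mt2 it was 47.4 to 68.3% and 56.4 to 76.8%, highest in the central bin of both libraries, where the mean was lowest. In the central bin of Tom+, 14.0% of cells had no Mt2 UMI at this depth, against 2.81% in the middle bin.

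**Figure D3:**
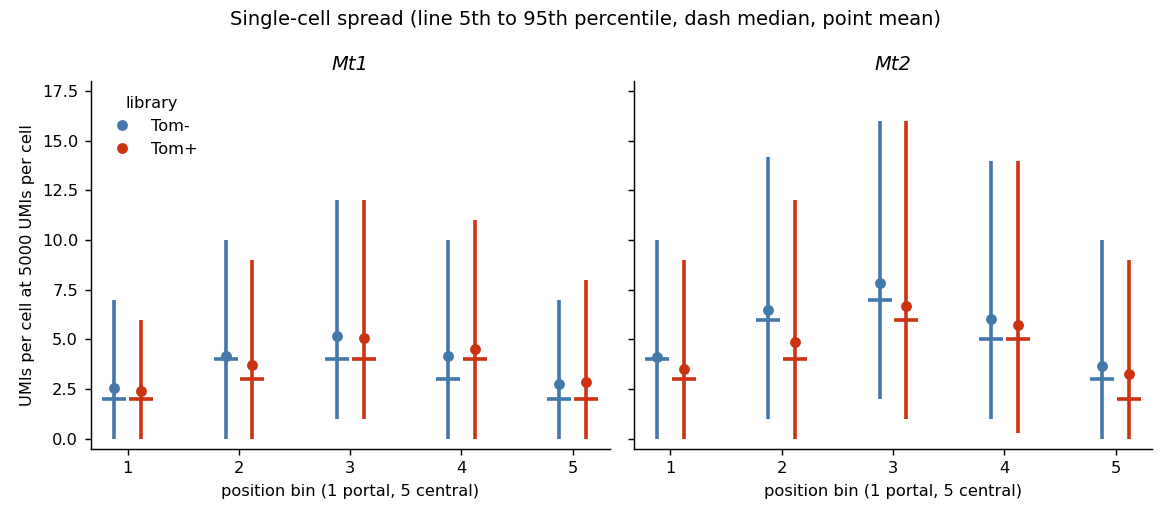
UMIs of Mt1 (left) and Mt2 (right) per hepatocyte, each cell thinned to 5000 UMIs, by position bin (1 portal, 5 central), for Tom- and Tom+. Lines run from the 5th to the 95th percentile of cells, dashes mark the median and points the mean. In the middle bin, Mt1 runs from 1 to 12 UMIs in both libraries, while in the portal bin it runs from 0 to 7 (Tom-) and 0 to 6 (Tom+).

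Mt1 and Mt2 rose and fell together from cell to cell. The Pearson correlation of their log-normalised counts was 0.79 over 11018 Tom- cells and 0.81 over 10491 Tom+ cells, and 0.53 and 0.55 after thinning. Within bins it ranged from 0.71 to 0.79 in Tom- and from 0.71 to 0.82 in Tom+. Cells of a library share its preparation, and both genes of a cell share that cell's depth, so these are descriptions. Slc39a14 followed at a distance, with 0.19 and 0.18 against Mt1 and 0.21 and 0.19 against Mt2, which fell to at most 0.09 after thinning. The correlations of Mtf1 and Slc30a1 with Mt1 and Mt2 lay between -0.02 and 0.03, at UMI counts per cell too low for them to be weighed.

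**Figure D4:**
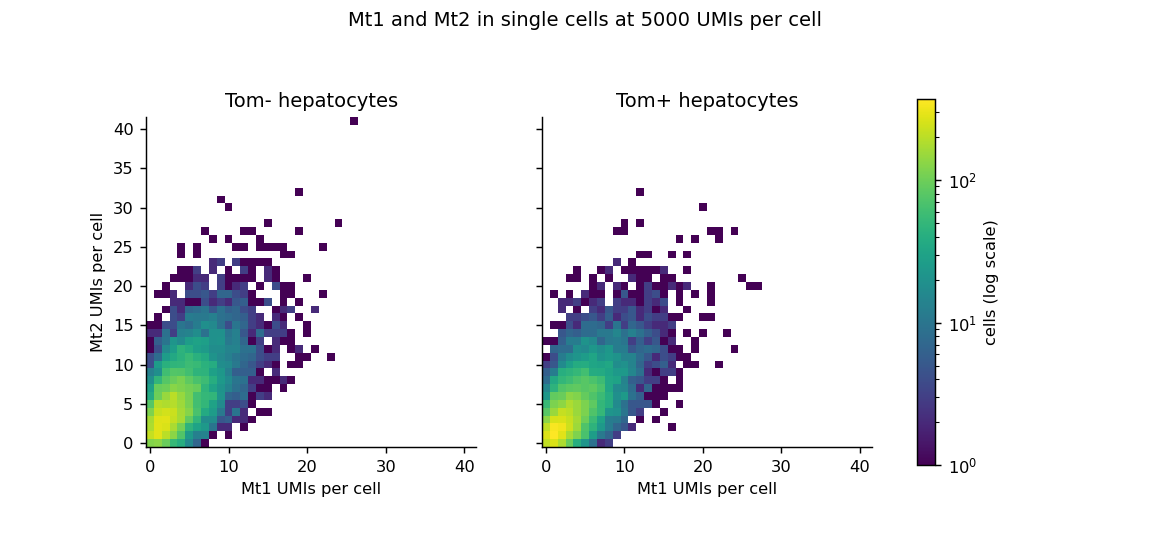
Number of hepatocytes (colour, log scale) at each combination of Mt1 UMIs (x axis) and Mt2 UMIs (y axis) with every cell thinned to 5000 UMIs, for Tom- (left) and Tom+ (right). Counts of the genes rise together in both libraries, with 1 continuous cloud that reaches 41 Mt2 UMIs in Tom-.

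Among 5748 genes, the one most like Mt1 across cells was Mt2. After it came Itih3 (r 0.32 in Tom- and 0.30 in Tom+), a plasma hyaluronan-binding protein, Fgg (0.29 and 0.34), the fibrinogen gamma chain, and C4b (0.30 and 0.28), a complement component. For Mt2 the nearest after Mt1 were Fgg (0.34 and 0.37), Fgb (0.34 and 0.36), C4b (0.34 and 0.31) and Fga (0.31 and 0.36), so all 3 fibrinogen chains were among its nearest 10. Sult2a8, another gene with a mid-lobular maximum, was in both lists. Most opposed to Mt1 were Mgst1 (-0.24 and -0.26), Gpx1 (-0.31 and -0.23) and Gsta4 (-0.25 and -0.23), enzymes that use glutathione, and Adh1 and Aldh1b1. Most opposed to Mt2 were Fth1 (-0.29 and -0.28), the ferritin heavy chain that stores iron, Adh1, Slc13a3, Rbp4 and the pericentral marker Glul (-0.18 and -0.27). The part of position in these values was not tested.

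Hepatocytes were then ranked within each library by the sum of Mt1 and Mt2 and cut into 5 groups of equal size, so the metallothionein levels themselves chose the cells. Slc39a14 was higher in the highest than in the lowest of these groups by 1.28-fold in Tom- (log2 0.35, 0.33 to 0.38) and 1.22-fold in Tom+ (0.29, 0.26 to 0.31). Only 2.62% and 2.65% of tested genes had a value as high or higher. Slc30a1 gave 0.10 (0.04 to 0.16) and 0.05 (-0.003 to 0.10), and Mtf1 gave 0.17 (0.06 to 0.29) and -0.05 (-0.16 to 0.06). Slc30a10 changed sign between the libraries, at -0.14 (-0.19 to -0.09) in Tom- and 0.16 (0.10 to 0.22) in Tom+.

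Of the other zinc genes, none passed 1.5-fold in that ranking (0 of 5 tested exporters and 0 of 8 tested importers in each library, against 0.538% and 0.901% of all genes). In the highest group 0.303% of tested genes in Tom- and 0.322% in Tom+ were 1.5-fold higher. Among 5 tested immediate early genes, which are switched on within minutes of a stimulus, 3 were higher in Tom- (Fos, Junb and Egr1) and 4 in Tom+ (also Jun), with medians of 0.60 and 0.79 on the log2 scale beside all-gene medians of 0.05 and -0.01. Fos rose from 19.0 to 43.5 CPM in Tom- and from 8.74 to 22.6 CPM in Tom+. Of 15 acute phase genes, which liver secretes in inflammation, 2 were higher in Tom- (Saa2 and Saa3), and in Tom+ 3 were higher and 1 lower, with medians of 0.23 and 0.30. Of 10 glucocorticoid-responsive genes, 0 passed in Tom- and 2 in Tom+ (Sgk1 and Cdkn1a), with medians of 0.25 and 0.26. Of 6 genes of the metal and oxidative response 0 passed in either library, with medians of 0.02 and -0.10, and of 14 copper and iron genes 0 passed, with medians of 0.03 and -0.04. Of 7 clock output genes 0 passed in Tom- and 1 was lower in Tom+ (Dbp), with medians of 0.09 and -0.17. Genes with the largest changes in both libraries included Cxcl9, a chemokine induced by interferon gamma (16.7 to 31.8 CPM in Tom- and 13.7 to 43.3 CPM in Tom+), Gbp2, an interferon-induced GTPase, and Cyp8b1, a bile acid synthesis enzyme. The level of these lists and their order were measured on the same cells, and no test separates them from position or depth.

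The wider zinc transporter families changed little between libraries. Over all hepatocytes, 5 of 8 other exporters and 8 of 13 other importers were abundant enough to compare, and 0 passed 1.5-fold, with medians of 0.20 and 0.08 on the log2 scale for Tom+ over Tom-. Mt3 and Mt4, the remaining metallothioneins, were too low to compare. Of all tested genes, 1.82% were higher in Tom+ and 0.525% lower. Of the lists of responsive genes, 0 of 10 glucocorticoid-responsive genes passed, with a median of -0.24 over all hepatocytes. Within the position bins, from portal to central, that median was -0.16, -0.15, -0.16, -0.007 and -0.18. Over all hepatocytes, 1 of 15 acute phase genes was higher in Tom+ (Orm3, 7.81 and 12.5 CPM). Among 7 clock output genes 2 were higher in Tom+ (Dbp, 8.79 and 22.4 CPM, and Per3, 13.8 and 21.5 CPM), and among 5 immediate early genes Fos was lower (25.9 and 13.2 CPM). The time of day at which the mice were killed is not given in the sources used here.

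From portal to central, 1 of 5 tested exporters and 1 of 8 tested importers were at least 1.5-fold higher in the central bin in Tom-, and 2 of 5 and 1 of 8 in Tom+, members left out. In that comparison 10.7% of tested genes in Tom- and 12.3% in Tom+ were that much higher. The median log2 ratio was 0.21 for the exporters and 0.26 for the importers in Tom-, beside 0.16 for all genes, and 0.23 and 0.24 in Tom+, beside 0.21. Slc30a4, an intracellular exporter, was higher in the central bin by 0.60 in Tom- and 0.74 in Tom+ on the log2 scale, Slc30a6 passed in Tom+ (0.77), and the importer Slc39a11 was higher by 0.91 and 0.85. The importer Slc39a8 stood at -0.10 and -0.29, and no tested exporter or importer of these lists was 1.5-fold lower. Of 6 tested genes of the metal and oxidative response, 3 were higher in the central bin in Tom- (Hmox1, Srxn1 and Nqo1) and 4 in Tom+ (also Gclm). Nqo1 differed most among those 3, by 1.51 and 1.80. Of 10 glucocorticoid-responsive genes, 3 were lower in the central bin in both libraries (Tat, Pck1 and Dusp1), where 5.48% and 5.62% of all tested genes were lower, and Pck1 is also a marker in the position score. Of 16 acute phase genes, 5 were lower and 3 higher in Tom-, and 6 were lower and 3 higher in Tom+. Of 7 clock output genes, 3 were lower in Tom- (Dbp, Per2 and Per3) and 1 in Tom+ (Per2). Of 14 copper and iron genes, 4 were higher in Tom- and 3 in Tom+, and 0 were lower. Of 5 immediate early genes, Fos, Jun and Egr1 were higher in the central bin than in the portal bin in both libraries. The same 3 were also 1.5-fold lower in the middle bin than in the central one, with list medians of -0.88 in Tom- and -0.59 in Tom+, where Mt1 and Mt2 were higher in the middle.

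Cells set apart from the hepatocytes were of 3 kinds. Besides hepatocyte profiles that carried markers of other cells (3097 in Tom- and 2108 in Tom+) and few-gene profiles (4730 and 302), 1791 cells fell into 11 sub-clusters. Of these, 1 could be named from its markers, an endothelial-like group of 307 Tom- and 76 Tom+ cells with all 10 endothelial markers at least 1.5-fold above hepatocytes (summed level 2326 and 1893 CPM, against 79.8 and 64.4 in hepatocytes). All 10 Kupffer or macrophage markers were raised as well, to 924 and 800 CPM from 221 and 194, and they reached 17589 and 20090 CPM in sub-cluster 1. Sub-clusters 1, 2, 4, 7, 8, 9 and 10 met the marker limits too and stay unnamed for their depth, with medians of 4002 to 6440 UMIs against 26694 (Tom-) and 36075 (Tom+) over all kept cells. Among them, sub-cluster 4 had a higher endothelial marker sum than the named group, at 7757 and 8251 CPM. In the endothelial-like group Mt1 was 390.7 CPM in Tom- and 374.5 in Tom+, or 54.4% and 51.8% of the hepatocyte level. Mt2 was 41.9% and 47.4% of it, Slc30a10 59.2% and 42.4%, and Slc39a14 26.5% and 28.2%. Slc30a1 stayed near it, at 89.2% and 78.0%, as did Mtf1 at 14.1 and 13.7 CPM. Members at least 2-fold higher in hepatocytes numbered 2 in Tom- (Mt2 and Slc39a14) and 3 in Tom+ (also Slc30a10), against 9.77% and 13.4% of tested genes. In sub-cluster 4, Slc30a1 was 126% and 121% of the hepatocyte level, with both log2 intervals including 0. Mtf1 there was 105% and 226%, on 10 and 14 UMIs, with an interval above 0 in Tom+ alone. The remaining members were lower there than in hepatocytes, Mt1 at 60.5% and 45.3% and Slc39a14 at 42.5% and 27.8%.

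The endothelial-like profiles also held hepatocyte RNA, and the 10 hepatocyte markers summed to 119% of the hepatocyte level in Tom- and 129% in Tom+. The part of that RNA in the member levels was not tested. Slc39a14, at 26.5% and 28.2%, thus lay far from the marker sum, and Slc30a1 and Mtf1 nearest to it.

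**Figure D5:**
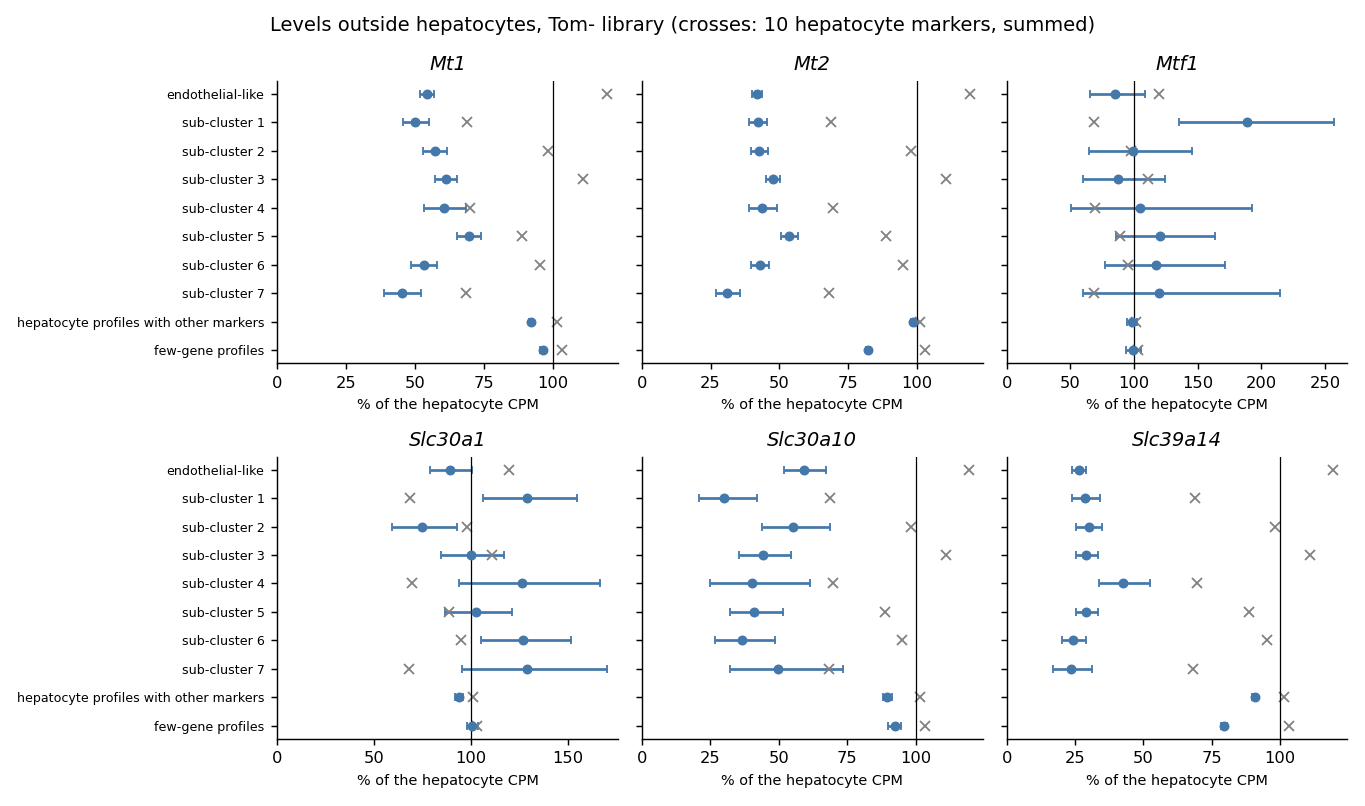
Level of each gene in Tom- classes of at least 50 cells set apart from the hepatocytes, as a percent of the hepatocyte CPM (x axis, vertical line at 100%). The classes include the hepatocyte profiles with other markers and the few-gene profiles. Bars are exact 95% Poisson intervals, and crosses give the same percent for the sum of 10 hepatocyte markers. Mt1, Mt2 and Slc39a14 lie left of the crosses in the endothelial-like group and sub-clusters 1 to 3, while Slc30a1 and Mtf1 of sub-cluster 1 lie right of 100%.

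Sub-cluster 1 (188 Tom- and 68 Tom+ cells, median 4587 UMIs), which had all 10 Kupffer or macrophage markers raised but was too shallow to be named, was the largest group with Mtf1 and Slc30a1 above hepatocytes. Mtf1 was 31.2 (22.3 to 42.5) CPM in Tom- and 33.8 (16.9 to 60.5) in Tom+, against 16.5 and 16.7 in hepatocytes. Slc30a1 was 88.2 (72.7 to 106) and 119.8 (85.2 to 164) CPM, against 68.5 and 71.2. Mt1 was lower there, at 359.8 and 215.0 CPM, and Slc39a14 was 99.1 and 86.0 CPM. Slc30a10 was 27.3 CPM in Tom- and 9.21 CPM in Tom+, the latter on 3 UMIs. The hepatocyte markers summed to 129473 CPM in Tom- and 84050 CPM in Tom+. CPM are shares of all UMIs of a group, and the all-gene median was not removed from these levels.

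The highest Slc30a1 level was in sub-cluster 8, a group of 59 cells that also carried macrophage markers and was led by Trim29, Mmp12, Gpnmb and Itgax. It stood at 170.3 CPM (129.9 to 219.2, 60 UMIs) in Tom- and 170.1 CPM (97.3 to 276, 16 UMIs) in Tom+. The same cells had 207 and 372 CPM of Mt1 and 62.4 and 85.1 CPM of Slc39a14, below hepatocytes for both genes in both libraries. Clusters were drawn from the expression of variable genes in the same cells, so these levels are descriptions.

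Among the 13 hepatocyte clusters, Mt1 ran from 461 and 415 CPM (Tom- and Tom+) in cluster 11 to 1180 and 1287 CPM in cluster 7. Mt2 was 1640 and 1642 CPM in that cluster 7, nearly equal in the libraries, and 1063 and 1185 CPM in cluster 0, where Tom+ was the higher. Slc30a10 was 37.0 and 27.9 CPM in cluster 1, a zone 3-like (pericentral) cluster, and 143.7 and 134.1 CPM in cluster 4, a zone 1-like (periportal) one. The zone 1-like clusters 2 and 3 had 121.7 and 109.2 CPM and 102.5 and 101.6 CPM of it. Cluster 11, also zone 1-like, had 49.4 CPM over 33 Tom- cells and 63.6 CPM over 495 Tom+ cells of the same gene. In cluster 6, Slc30a10 was 32.6 CPM over 36 Tom- cells and 28.2 CPM over 1543 Tom+ cells. At least 90% of the cells of clusters 6 and 11 were Tom+, and at least 90% of those of clusters 3 and 10 were Tom-, so a level in these clusters may belong to the library.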

How the data were processed

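Transcripts were measured in single fixed liver cells sorted as Tom- or Tom+ hepatocytes, with 1 library per group. The deposited values are raw UMI counts per gene and cell, which the authors made with Cell Ranger 7.2.0 (cellranger multi) on mm10 from a fixed-RNA mouse probe set with added tdTomato probes. Groups were taken from the sample labels.

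Cells with over 0.05 mitochondrial UMIs, fewer than 2000 or over 10000 genes, or over 100000 UMIs were removed, as in the study's methods. Cells of both libraries were clustered together (scanpy 1.11.5, 2000 variable genes, 30 components, 20 neighbours, Leiden resolution 0.8). Clusters were set apart from the hepatocytes when their median gene number was under 0.75 of the median over all kept cells. They were also set apart when the level of Pecam1, Ptprc or Dcn reached 2.5 times that of the median cluster. Scrublet called 1 doublet in Tom- and 0 in Tom+, so the caller did not work here, and doublets were not otherwise removed; leaving out the 10% of cells with the highest scores was an alternative. Position was the mean z-scored log level of 13 central minus that of 13 portal markers, cut into 5 bins of equal size over all hepatocytes.

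UMIs were summed over cells and divided by all UMIs of those cells to give CPM, so a level is a pool over cells and not a mean of replicates. Ratios of the members carry exact conditional 95% intervals and levels exact Poisson intervals, and both cover counting error only. For the ratios over all genes and lists, 0.5 UMIs were added. Genes with at least 5 CPM in 1 of the groups compared and 20 UMIs over both were tested against a fold of 1.5 (2 between cell classes). Spread was measured after thinning each cell to 5000 UMIs. Sub-clusters were named when at least 3 markers and 50% of a list, more than of any other list, were at 5 CPM or more and 1.5-fold above the remaining sub-clusters, that list had the highest summed level, and no other list had more markers among the 10 leading genes. A sub-cluster whose median UMIs were under those of all kept cells of its library divided by 3, with none of that list's markers among its 10 leading genes, stayed unnamed. For the Tom+ and Tom- comparison, Poisson sums of 19073 genes were simulated from 1 shared profile, with 200 genes changed by at least 2-fold. Of these, 200 of 200 were recovered with 0 false calls, and 97% of their intervals held the true ratio. The changes lay well past the fold of 1.5, and no variation between cells, animals or libraries was simulated. The simulation therefore checks the calculation only and cannot show how far the libraries differ beyond counting error.

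The members, lists and markers were chosen with earlier results of these data known. The comparisons with the middle bin, the 10 finer bins and the limits for naming sub-clusters were set after values had been seen. Genes named for likeness to Mt1 or Mt2 were the 10 highest and 5 lowest by the smaller correlation of the libraries, at 20 CPM or more, and the genes named for the ranking by metallothionein level were taken from its 10 largest changes. Slc30a1 and Mt1 of other cell classes are named for the size of their values. The 18 alternatives planned, and 1 added later that removes clusters with 90% or more cells of either library, have their effect given in the closing section.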

Additional observations from a re-analysis of the deposited data

Results flagged for a closer look

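Barcodes over 100000 UMIs, which the filter removes and no comparison above uses (360 in Tom- and 1239 in Tom+), also carried the members. In them Mt1 was 629 CPM in Tom+ and 586 CPM in Tom-, and Slc30a1 was 65.4 CPM in Tom+ and 58.7 CPM in Tom-. They are given because they are signals outside the cells analysed that lay above the Tom- level beyond counting error. Mt2 was 971 and 1279 CPM in the same barcodes, lower in Tom+, and Slc30a10 was 62.2 and 73.3 CPM. Whether these barcodes hold single large cells or several cells was not tested.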

How the results depend on the processing

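No paired analysis was possible because Tom- and Tom+ are 1 library each, and no replicate could be left out for that reason. The cause of each change below was not tested. The middle maximum of Mt1 and Mt2 and the portal-to-central fall of Slc30a10 kept their direction under every alternative run: middle over portal ranged from 0.67 to 1.02 on the log2 scale in Tom- and 0.77 to 1.11 in Tom+ for the summed metallothioneins, middle over central from 0.60 to 1.11 and 0.62 to 1.09, and Slc30a10 central over portal from -1.90 to -1.31 and -2.20 to -1.52. Slc30a10 in Tom+ over Tom- ranged from -0.64 to -0.41. Mt2 ranged from -0.32 with median-of-ratios scaling to -0.15 without clusters of 90% or more Tom+ cells. Members past 1.5-fold between libraries went from 0 to 1 (Slc30a10) with cells thinned to 5000 UMIs, with the mean over cells, with median-of-ratios scaling and without the 10% highest doublet scores. Summed metallothioneins in Tom+ over Tom- (-0.16) became -0.14 with few-gene clusters kept, -0.20 with median-of-ratios scaling, -0.041 without clusters of 90% or more Tom+ cells and -0.12 without those of either library.

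Central over portal, the same sum in Tom+ (0.03) turned to -0.23 with bins cut within each library, to -0.18 with median-of-ratios scaling and to -0.014 with a score lacking Glul, Cyp2e1, Sds and Cyp2f2. It moved to 0.053 with thinned cells, 0.046 with the mean over cells, 0.0045 with a score from summed markers, 0.15 with 3 bins, 0.097 without clusters rich in Tom+ cells, 0.079 without those rich in either library and 0.19 between zone 3-like and zone 1-like clusters. In Tom- (-0.06) it turned to 0.38 with bins cut within each library and to 0.0067 with 3 bins, and moved to -0.22 with median-of-ratios scaling, -0.099 with summed markers, -0.12 without the clusters rich in either library and -0.021 between zone clusters. Median-of-ratios scaling removes the all-gene medians of 0.16 (Tom-) and 0.21 (Tom+) from these ratios.

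Single genes also changed sign. Mt1 in Tom+ over Tom- turned to -0.016 (thinned), -0.027 (mean over cells), -0.031 (median-of-ratios) and -0.025 (without clusters rich in either library). Mt1 central over portal turned to -0.084 (bins within library) and -0.022 (median-of-ratios) in Tom+, and to -0.036 (median-of-ratios) and -0.067 (without clusters rich in either library) in Tom-. Mt2 central over portal turned to 0.082 (3 bins) and 0.12 (zone clusters) in Tom+ and to 0.30 (bins within library) in Tom-. Mtf1 middle over central in Tom+ turned to 0.018 and Slc30a1 central over portal in Tom+ to -0.019 (both median-of-ratios), and Slc30a1 in Tom+ over Tom- to -0.048 (without clusters rich in either library). The spread of Mt1 beyond counting (0.413 in Tom- and 0.450 in Tom+) was 0.342 and 0.377 as a mean within bins. With each of the other results counted once per alternative, 365 such cases stayed within the limit set for their kind and 224 moved beyond it. That limit was the counting interval for ratios, 1.5 times for counts of members and 10% for spread. Depth limits Mtf1, Slc30a1 and Slc30a10 in single cells and all members in sub-clusters under 50 cells.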
